A study of Rattus norvegicus with 35 samples.

Results

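Alveolar type 1 cell genes were followed in rat lung after exposure to carbon nanotubes. The genes were Cav1, Aqp5, Rtkn2, Ager, Pdpn, Hopx, Cldn18 and Akap5, taken by name from a list of markers of this cell type and not by their values. They are 8 of the 34766 gene names on the array, and all 8 were among the 24476 genes bright enough to be tested. Alveolar type 1 cells are the thin, flat epithelial cells that cover most of the gas-exchange surface and share a basement membrane with the capillaries. They carry many caveolae, water channels and tight junctions, and after injury they are replaced from alveolar type 2 cells, which pass through a keratin-rich transitional state on the way. Several of the genes are also used by other cells of the lung: Cav1 by endothelium and fibroblasts, Pdpn by lymphatic endothelium and mesothelium, Hopx by cardiac muscle, and Cldn18 by type 2 cells.

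The arrays came from 35 female Sprague Dawley rats, 12 weeks old when instillation began, with 1 one-colour array per rat and RNA from the accessory lobe of the lung. WT rats received Mitsui-7 (6 rats), NM-403 (6 rats) or the Pluronic vehicle (6 controls), and rats heterozygous for p53, called p53het here, received Mitsui-7 (6 rats), NM-403 (5 rats) or the vehicle (6 controls). Mitsui-7 and NM-403 are both multi-walled carbon nanotubes, instilled into the trachea weekly over 4 weeks at 0.25 mg per rat, and lungs were taken 3 days later. The labels do not say whether the dose is per instillation or in total, nor which part of the p53 gene is altered.

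Values are log2 processed signal minus the 75th percentile of that array's log2 signal, and a difference of -1 is a decrease to 50%. Each gene was read by its own probe, so levels are compared between rats and never between genes. Of the spots on an array, 66.1% to 86.4% were well above background (median 71.5%), no spot was saturated, and the 75th percentile itself ran from 9.63 to 11.1. The highest share belonged to WT Mitsui-7 rat 5 and the lowest to WT NM-403 rat 6. A lobe holds many cell types, so fewer type 1 cells and less RNA of these genes per cell cannot be told apart.

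Across the 8 genes, Cav1 had lower signal in every exposed group, Rtkn2 in 3 of the 4 tests and Aqp5 after Mitsui-7 in both genotypes, while Ager and Cldn18 passed in none. In WT rats given Mitsui-7, 5 of the 8 genes fell and none rose, where 5.56% of all genes tested fell and 8.41% rose. That count was 3 without WT control rat 3 or without WT Mitsui-7 rats 2, 4 or 5, and 3 with the mean of all probes of a gene. In p53het rats given Mitsui-7, 3 of the 8 fell and none rose (6.28% of all genes fell and 5.29% rose). NM-403 gave 1 of 8 lower in WT rats (0.903% of all genes fell and 2.3% rose) and 2 of 8 lower in p53het rats (0.253% fell and 1.27% rose), with none higher. With slide as a fixed block, 4 of 8 were lower in WT NM-403 rats, and with slide as a random block 5 of 8. Over all genes, calls in either direction rose as well, from 3.2% to 7.73% and 7.77%. Over both genotypes, as the mean of their differences, 6 of 8 fell after Mitsui-7 (13.9% of all genes fell and 13.3% rose) and 3 of 8 after NM-403 (4.19% fell and 4.71% rose). With slide as a fixed or a random block the NM-403 count was 6 of 8 and the Mitsui-7 count stayed at 6, while with the mean of all probes the Mitsui-7 count was 3. With these blocks, calls over all genes in either direction rose from 8.9% to 17.9% and 16.9% for NM-403. For Mitsui-7 they rose from 27.2% to 36.8% and 36%. The median difference of the 8 genes was -0.33 after Mitsui-7 and -0.24 after NM-403, against medians over all genes of 0.01 and -0.04. These counts use an adjusted p under 0.05 over all 24476 genes. The 2 nanotubes share their controls, so the results for Mitsui-7 and NM-403 are not independent of each other.

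**Figure D1:**
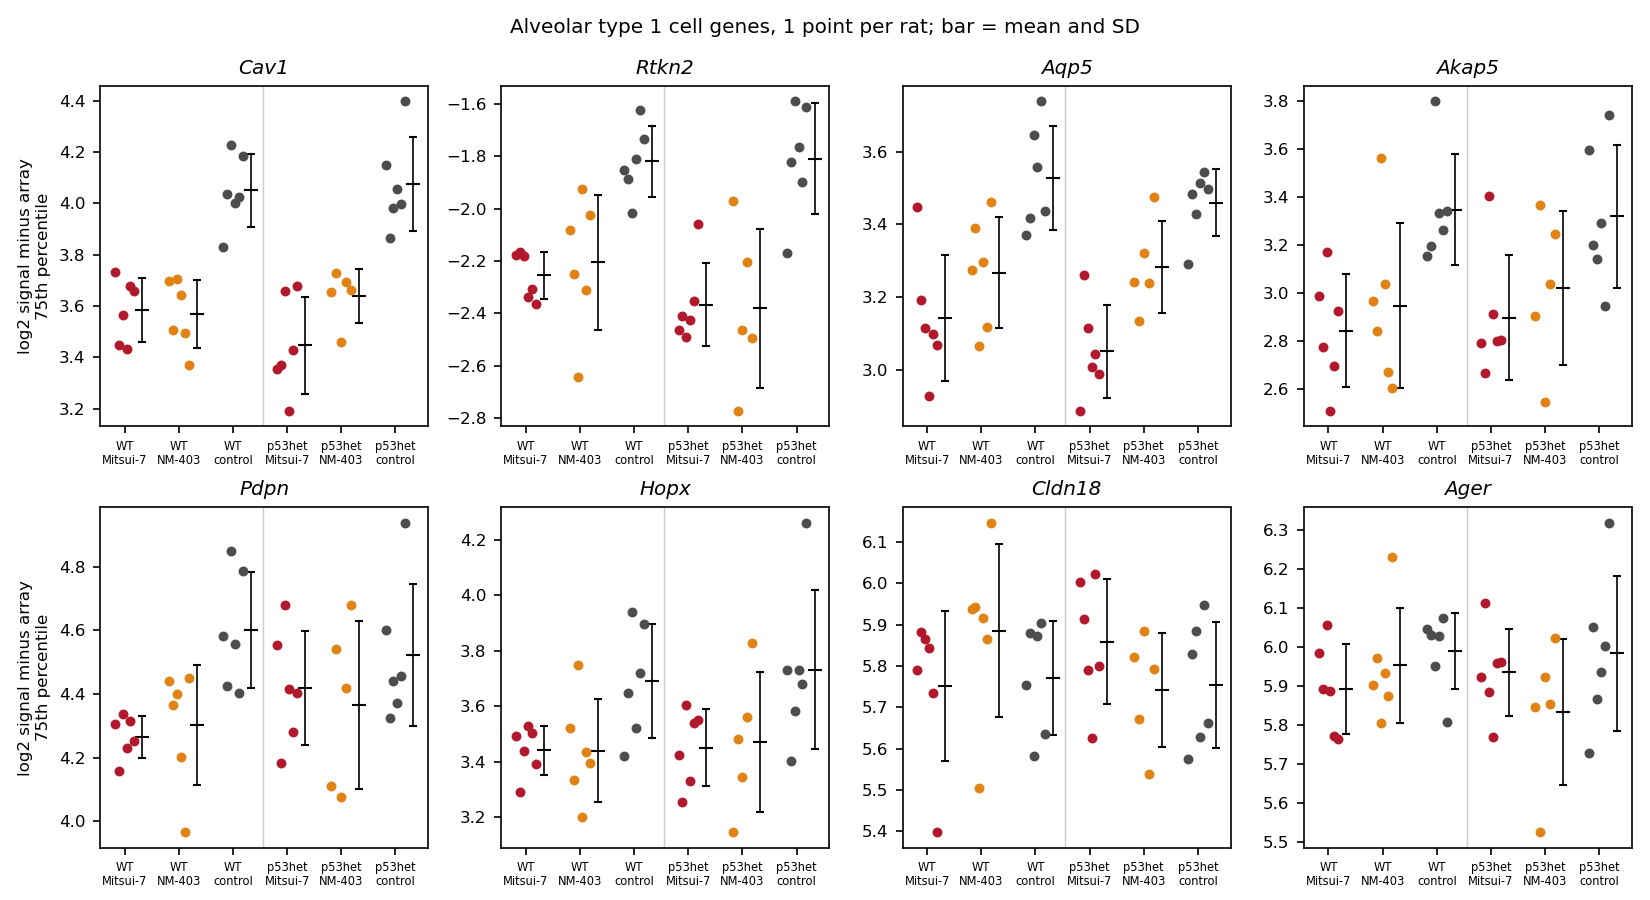
Log2 signal minus the array's 75th percentile (y axis) for each of the 8 genes, 1 point per rat, in 6 groups (x axis: WT Mitsui-7, WT NM-403, WT control, then the same for p53het), with mean and SD at the right of each group. Every exposed rat lies below every control of its genotype for Cav1, while the groups overlap for Cldn18 and Ager.

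**Figure D2:**
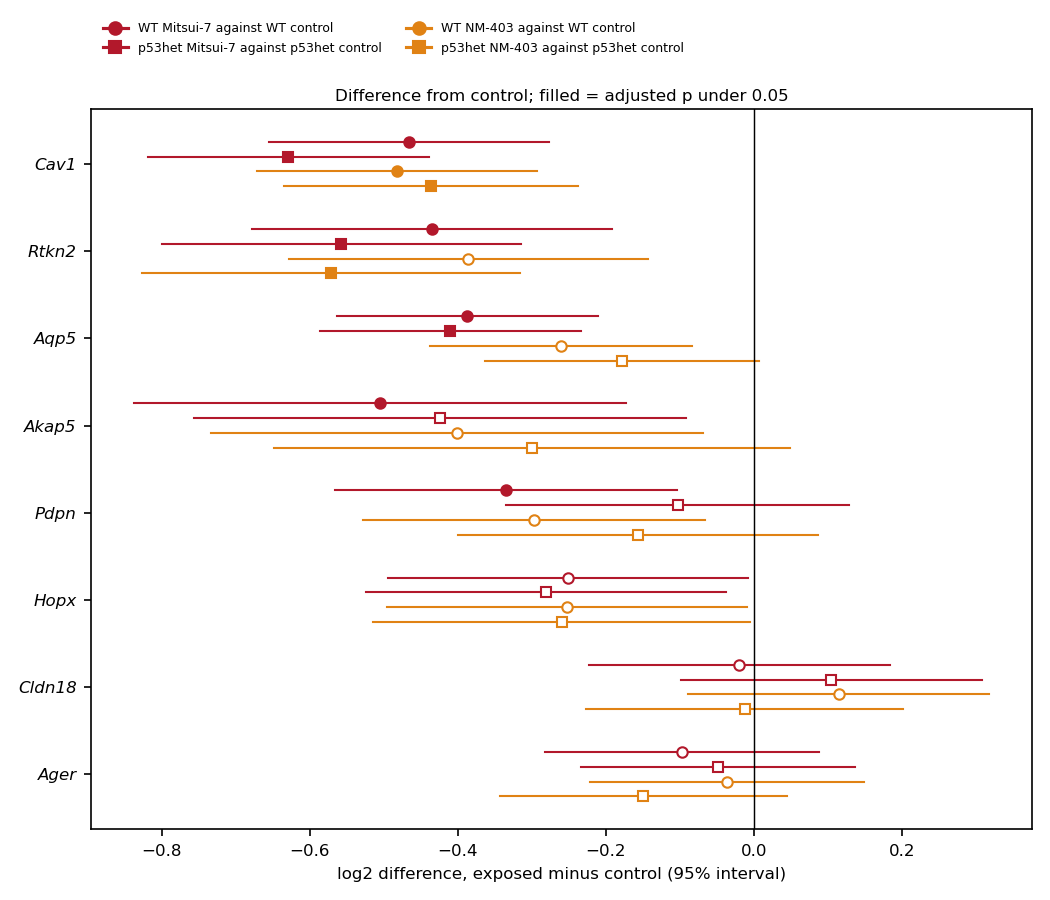
Log2 difference, exposed minus control of the same genotype (x axis), with 95% interval for each gene (y axis), red for Mitsui-7 and orange for NM-403, circles for WT and squares for p53het; filled symbols have an adjusted p under 0.05. Cav1 is filled in all 4 comparisons, and the intervals of Ager and Cldn18 include 0 throughout.

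Promoter windows were set beside the expression values because the genes changed unequally. RefSeq gives a window of 250 bases before to 50 after the start site for all 8 genes, 9 windows in all (GRCr8). Windows of 2 genes that fell (Rtkn2, Aqp5) and 2 that did not pass (Ager, Cldn18) were picked for that reason and are shown 5′ to 3′ on the gene's strand, with matches to the motif letters in capitals:
Rtkn2, chr20:20608813-20609112, minus strand: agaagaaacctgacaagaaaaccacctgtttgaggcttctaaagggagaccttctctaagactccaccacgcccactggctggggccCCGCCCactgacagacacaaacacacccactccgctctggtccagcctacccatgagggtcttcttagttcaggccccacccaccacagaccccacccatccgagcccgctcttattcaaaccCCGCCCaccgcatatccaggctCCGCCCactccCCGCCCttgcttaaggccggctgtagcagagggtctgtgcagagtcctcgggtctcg
Aqp5, chr7:132601278-132601577, plus strand: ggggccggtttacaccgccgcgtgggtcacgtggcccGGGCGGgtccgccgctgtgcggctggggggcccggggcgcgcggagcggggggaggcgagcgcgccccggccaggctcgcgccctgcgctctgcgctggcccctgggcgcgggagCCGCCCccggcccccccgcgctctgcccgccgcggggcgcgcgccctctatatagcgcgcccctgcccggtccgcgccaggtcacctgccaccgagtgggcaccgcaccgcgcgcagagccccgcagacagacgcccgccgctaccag
Ager, chr20:4155636-4155935, minus strand: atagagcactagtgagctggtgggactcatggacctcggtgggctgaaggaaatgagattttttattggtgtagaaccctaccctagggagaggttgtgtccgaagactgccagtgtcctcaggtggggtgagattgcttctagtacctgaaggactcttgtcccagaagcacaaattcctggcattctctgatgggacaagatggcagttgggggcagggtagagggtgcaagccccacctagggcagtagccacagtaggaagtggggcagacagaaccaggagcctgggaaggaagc
Cldn18, chr8:109144570-109144869, minus strand: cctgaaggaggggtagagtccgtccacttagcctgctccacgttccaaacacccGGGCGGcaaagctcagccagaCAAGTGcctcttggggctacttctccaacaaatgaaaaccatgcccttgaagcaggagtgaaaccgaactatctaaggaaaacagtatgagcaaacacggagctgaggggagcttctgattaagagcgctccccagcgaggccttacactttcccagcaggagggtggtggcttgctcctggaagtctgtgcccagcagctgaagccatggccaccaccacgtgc
The 3 sets of letters were searched on both strands, and no matches overlap in the windows shown. GGGCGG, the core bound by SP1, was found in 6 of the 9 windows and in 33.1% of 33469 rat windows of this length. It occurs 4 times for Rtkn2, 3 times for Pdpn, 3 times for Akap5, 2 times for Aqp5, 2 times in the first Cav1 window and 1 time for Cldn18. It has 0 matches for Ager, for Hopx, which fell after Mitsui-7 over both genotypes, and in the other Cav1 window. Whether the matches go with the change of a gene was not tested. CAAGTG, the core bound by NKX2-1, was found in 1 of 9 windows, that of Cldn18, and in 14.1% of all. CATTCC, the core bound by TEAD factors, was found in 0 of 9 and in 14.2% of all.

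Cav1 encodes caveolin-1, the coat protein of caveolae, the flask-shaped pits of the cell surface. Its probe was printed on 10 spots of each array, which differed with a median SD of 0.052 within an array. In WT rats Cav1 signal ran from 3.43 to 3.73 (median 3.61) after Mitsui-7 and from 3.37 to 3.71 (median 3.58) after NM-403, against 3.83 to 4.23 (median 4.03) in controls. In p53het rats it ran from 3.19 to 3.68 (median 3.4) after Mitsui-7 and was 3.65, 3.73, 3.46, 3.69 and 3.66 after NM-403, against 3.86 to 4.40 (median 4.03) in controls. Each exposed rat was below each control of its genotype, and groups that do not overlap in this direction were seen for 2.89% of all genes in WT Mitsui-7, 0.866% in WT NM-403, 2.23% in p53het Mitsui-7 and 0.842% in p53het NM-403. Cav1 fell by 0.47 ± 0.09 in WT Mitsui-7 rats (limma, adjusted p = 0.000604) and by 0.48 ± 0.09 in WT NM-403 rats (adjusted p = 0.00182). In p53het rats it fell by 0.63 ± 0.09 after Mitsui-7 (adjusted p = 1.71e-05) and by 0.44 ± 0.10 after NM-403 (adjusted p = 0.0121). As percent changes of signal these ran from -35.3% to -26.1%. The p53het NM-403 call was lost without p53het NM-403 rat 3 (adjusted p = 0.0596) and with the array median for scaling (adjusted p = 0.0804). An exact two-sided permutation test gave p = 0.00216 for each comparison of 6 against 6 rats, the smallest that design allows, and p = 0.00433 for p53het NM-403. The arrays lay on 5 slides. Within slides the difference was below 0 on 4 of 4, 5 of 5, 5 of 5 and 4 of 4 slides for WT Mitsui-7, WT NM-403, p53het Mitsui-7 and p53het NM-403.

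The counts of gene lists given here and below stand beside 13.9% of all genes lower and 13.3% higher after Mitsui-7, and 4.19% lower and 4.71% higher after NM-403. Other caveolar genes were measured for 7 of 7 listed, and none rose. After Mitsui-7 over both genotypes 5 of the 7 fell and the median was -0.36, and after NM-403 2 of the 7 fell and the median was -0.27. Cav2, which forms mixed oligomers with caveolin-1, fell by 0.52 ± 0.06 after Mitsui-7 (adjusted p = 3.25e-08) and by 0.42 ± 0.06 after NM-403 (adjusted p = 1.31e-05). Cav3, the caveolin of muscle, fell by 0.56 ± 0.11 after Mitsui-7 (adjusted p = 0.00034), and Cavin1, a cytoplasmic coat protein of caveolae, fell by 0.39 ± 0.12 (adjusted p = 0.0122). Cavin3, another cavin, fell by 0.29 ± 0.08 after NM-403 (adjusted p = 0.0109). Endothelial genes, which mark a cell type rich in Cav1, moved in the same direction: 14 of 16 fell after Mitsui-7 (median -0.62) and 8 of 16 after NM-403 (median -0.30). The mean level over the 16 endothelial genes ran from 0.25 to 0.95 in WT Mitsui-7 rats and from 0.74 to 1.12 in WT NM-403 rats, against 1.19 to 1.43 in WT controls. The p53het rats ranged from 0.50 to 0.99 after Mitsui-7 and from 0.94 to 1.23 after NM-403, against 1.25 to 1.40 in controls. The part of endothelium in the Cav1 result was not tested.

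Aqp5 encodes aquaporin-5, a water channel of the type 1 cell's apical face. In WT rats its signal ran from 2.93 to 3.45 (median 3.11) after Mitsui-7 and from 3.07 to 3.46 (median 3.28) after NM-403, against 3.37 to 3.74 (median 3.50) in controls. Among p53het rats it ran from 2.89 to 3.26 (median 3.02) after Mitsui-7 and was 3.24, 3.13, 3.32, 3.24 and 3.47 after NM-403, against 3.29 to 3.54 (median 3.49) in controls. The p53het Mitsui-7 rats did not overlap with their controls, as for 2.23% of all genes in this direction, and in WT 5 of 6 Mitsui-7 rats were below every control. Aqp5 fell by 0.39 ± 0.09 in WT Mitsui-7 rats (limma, adjusted p = 0.00213) and by 0.41 ± 0.09 in p53het Mitsui-7 rats (adjusted p = 0.00154). The NM-403 differences were -0.26 ± 0.09 in WT rats (adjusted p = 0.0982) and -0.18 ± 0.09 in p53het rats (adjusted p = 0.442), and over both genotypes Aqp5 fell by 0.22 ± 0.06 (adjusted p = 0.0234), a call lost with the array median for scaling (adjusted p = 0.109) and without p53het NM-403 rat 2 (adjusted p = 0.0532). Set directly against each other over both genotypes, Mitsui-7 minus NM-403 was -0.18 ± 0.06 (95% interval -0.31 to -0.05, adjusted p = 0.081). That difference passed with slide as a fixed block (adjusted p = 0.0373) and with the array median for scaling (adjusted p = 0.0338). Calls over all genes between the nanotubes were 11.9% and 7.14% in those settings, against 6.9% in the fit used here.

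Water and ion transport was read in 8 other genes. After Mitsui-7 over both genotypes 4 rose and 2 fell, and after NM-403 4 rose and 1 fell. Aqp3, a channel for water and glycerol, rose by 3.74 ± 0.21 after Mitsui-7, a 13.4-fold increase (adjusted p = 8.66e-15), and by 1.56 ± 0.22 after NM-403 (adjusted p = 7.82e-06). Aqp1, the water channel of lung capillaries, fell by 0.53 ± 0.06 after Mitsui-7 (adjusted p = 4.05e-08) and by 0.39 ± 0.06 after NM-403 (adjusted p = 5.77e-05). Scnn1a, the alpha subunit of the epithelial sodium channel, fell by 0.62 ± 0.09 after Mitsui-7 (adjusted p = 4.38e-06). Cftr, an apical chloride channel, rose by 0.56 ± 0.14 after Mitsui-7 and by 0.63 ± 0.14 after NM-403 (adjusted p = 0.00305 and 0.00434).

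Cldn18 encodes claudin-18, a tight junction protein of alveolar epithelium. In WT rats its signal ran from 5.40 to 5.88 (median 5.82) after Mitsui-7 and from 5.51 to 6.15 (median 5.93) after NM-403, against 5.58 to 5.90 (median 5.81) in controls. For p53het rats the signal ran from 5.63 to 6.02 (median 5.86) after Mitsui-7 and was 5.82, 5.67, 5.88, 5.54 and 5.79 after NM-403, against 5.58 to 5.95 (median 5.75) in controls. All groups overlapped. The difference was 0.04 ± 0.07 after Mitsui-7 over both genotypes (95% interval -0.10 to 0.19) and 0.05 ± 0.07 after NM-403 (-0.10 to 0.20), with limma adjusted p of 0.706 and 0.789. A further Cldn18 probe gave 0.04 ± 0.09 and 0.12 ± 0.09 for the same comparisons, neither of which passed. Of 10 other tight junction genes 4 fell and none rose after Mitsui-7, and 1 fell and 1 rose after NM-403. Those that fell after Mitsui-7 included Cldn1 (-0.47 ± 0.16), a further claudin, Tjp1 (-0.32 ± 0.08), a scaffold protein of the junction, and F11r (-0.30 ± 0.10), junctional adhesion molecule A. Cldn4, also a claudin, was listed with the transitional epithelial genes below and not here, and it rose after both nanotubes.

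Ager encodes the receptor for advanced glycation end products, a membrane receptor that is unusually abundant at the base of type 1 cells. In WT rats its signal ran from 5.76 to 6.06 (median 5.89) after Mitsui-7 and from 5.81 to 6.23 (median 5.92) after NM-403, against 5.81 to 6.07 (median 6.03) in controls. Levels in p53het rats ran from 5.77 to 6.11 (median 5.94) after Mitsui-7 and were 5.85, 5.52, 5.92, 5.85 and 6.02 after NM-403, against 5.73 to 6.32 (median 5.97) in controls. All groups overlapped, and the difference over both genotypes was -0.07 ± 0.06 after Mitsui-7 (95% interval -0.20 to 0.06, limma adjusted p = 0.44) and -0.09 ± 0.07 after NM-403 (-0.23 to 0.04, adjusted p = 0.476). Of 7 ligands and partners of the receptor, 1 rose after Mitsui-7, near the 13.3% of all genes that rose, and 2 rose after NM-403 (4.71% of all genes). S100a4, a calcium-binding ligand, rose by 0.49 ± 0.11 after Mitsui-7 (adjusted p = 0.0017). S100a9 and S100a8, which together form calprotectin and are abundant in neutrophils, rose by 1.83 ± 0.22 and 1.01 ± 0.22 after NM-403 (adjusted p = 7.38e-07 and 0.00283). After Mitsui-7 neither passed, with differences of -0.50 for S100a9 and -0.30 for S100a8.

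Pdpn encodes podoplanin, a mucin-like membrane protein that binds the platelet receptor CLEC-2 and the cortical linkers ezrin, radixin and moesin. In WT rats its signal ran from 4.16 to 4.34 (median 4.28) after Mitsui-7 and from 3.97 to 4.45 (median 4.38) after NM-403, against 4.40 to 4.85 (median 4.57) in controls. Values in p53het rats ran from 4.18 to 4.68 (median 4.41) after Mitsui-7 and were 4.11, 4.54, 4.08, 4.42 and 4.68 after NM-403, against 4.33 to 4.94 (median 4.45) in controls. WT Mitsui-7 rats did not overlap with WT controls, as for 2.89% of all genes in this direction, and the other exposed groups did overlap with theirs. Pdpn fell by 0.33 ± 0.11 in WT Mitsui-7 rats (limma, adjusted p = 0.045), a call close to the threshold that was lost without any 1 of 13 arrays (adjusted p = 0.05 to 0.119). In p53het Mitsui-7 rats the difference was -0.10 ± 0.11 (adjusted p = 0.64), and the difference between the genotypes' effects was 0.23 ± 0.16, which did not pass. Over both genotypes Pdpn fell by 0.22 ± 0.08 after Mitsui-7 (adjusted p = 0.0405), a call lost without any 1 of 11 arrays (adjusted p = 0.0523 to 0.0788). The difference after NM-403 was -0.23 ± 0.08 (adjusted p = 0.0822), which passed with slide as a fixed block (adjusted p = 0.00431). Of 7 partners, 1 rose and 2 fell after Mitsui-7 and 1 rose and 1 fell after NM-403. With 13.3% of all genes higher and 13.9% lower after Mitsui-7, those counts are not a result about the partners as a list. Clec1b, which encodes CLEC-2, fell by 0.91 ± 0.15 after Mitsui-7 (adjusted p = 2.65e-05), and Cd44, a hyaluronan receptor that associates with podoplanin, rose by 0.48 ± 0.07 (adjusted p = 1.34e-06).

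Lymphatic endothelium and mesothelium also express Pdpn. Over both genotypes 4 of 6 lymphatic genes fell after Mitsui-7 and 2 of 6 after NM-403. Of 7 mesothelial genes 3 fell and 1 rose after Mitsui-7, and 5 fell after NM-403. The mean level of the mesothelial genes ran from -2.96 to -2.37 in WT Mitsui-7 rats, against -2.49 to -2.20 in WT controls, and from -2.32 to -2.15 in p53het Mitsui-7 rats, against -2.70 to -2.23 in p53het controls. The part of these cells in the Pdpn values was not tested.

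Pdpn was read by a further probe whose 60 bases span 987 bases of genome, that is, across an intron, so it reads spliced RNA. It is shown here because it gives the gene another reading, at chr5:162143371-162144357 on the minus strand (rn4, the build named in the file headers):
Pdpn further probe: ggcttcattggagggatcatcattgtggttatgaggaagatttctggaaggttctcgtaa
This probe gave -0.34 ± 0.18 in WT Mitsui-7 rats and -0.24 ± 0.13 after Mitsui-7 over both genotypes, close to the values above, but with a wider error and no call.

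Rtkn2 encodes rhotekin-2, a signalling protein of the rhotekin family. In WT rats its signal ran from -2.36 to -2.16 (median -2.24) after Mitsui-7 and from -2.64 to -1.92 (median -2.17) after NM-403, against -2.02 to -1.62 (median -1.83) in controls. In the p53het rats signal ran from -2.49 to -2.06 (median -2.42) after Mitsui-7 and was -1.97, -2.77, -2.47, -2.21 and -2.49 after NM-403, against -2.17 to -1.59 (median -1.80) in controls. WT Mitsui-7 rats did not overlap with WT controls, as for 2.89% of all genes in this direction. Of the others, 1 p53het Mitsui-7 rat and 1 p53het NM-403 rat lay within their controls' range. Rtkn2 fell by 0.43 ± 0.12 in WT Mitsui-7 rats (limma, adjusted p = 0.0123), by 0.56 ± 0.12 in p53het Mitsui-7 rats (adjusted p = 0.00173) and by 0.57 ± 0.12 in p53het NM-403 rats (adjusted p = 0.0101). This last call was lost without p53het NM-403 rat 2 (adjusted p = 0.0655). In WT NM-403 rats the difference was -0.39 ± 0.12 (adjusted p = 0.0702), which passed with slide as a fixed block (adjusted p = 0.0147). A dimmer Rtkn2 probe was well above background on only 1 to 5 arrays of each group and gave 0.41 ± 0.24 after Mitsui-7 and -0.43 ± 0.24 after NM-403 over both genotypes. Averaged with that probe, Rtkn2 was 0.04 in WT Mitsui-7 rats and -0.04 after Mitsui-7 over both genotypes, and the calls in WT Mitsui-7, p53het Mitsui-7 and p53het NM-403 rats and for Mitsui-7 over both genotypes were lost, while the NM-403 difference over both genotypes still passed (-0.46, adjusted p = 0.0314).

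Akap5 encodes an anchoring protein that holds protein kinase A, calcineurin and protein kinase C at the membrane. Its only probe on the array is shown because the gene rests on it alone, at chr6:98928387-98928446 on the plus strand (rn4):
Akap5 probe: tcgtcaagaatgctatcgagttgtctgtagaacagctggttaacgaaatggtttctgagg
In WT rats its signal ran from 2.51 to 3.17 (median 2.85) after Mitsui-7 and from 2.60 to 3.56 (median 2.90) after NM-403, against 3.15 to 3.80 (median 3.30) in controls. Signal in p53het rats ran from 2.67 to 3.41 (median 2.80) after Mitsui-7 and was 2.90, 3.37, 2.54, 3.04 and 3.25 after NM-403, against 2.95 to 3.74 (median 3.25) in controls. In each genotype 5 of 6 Mitsui-7 rats were below every control. Akap5 fell by 0.51 ± 0.16 in WT Mitsui-7 rats (limma, adjusted p = 0.0347) and by 0.46 ± 0.12 after Mitsui-7 over both genotypes (adjusted p = 0.00276). The WT call was lost without WT control rat 3 or without Mitsui-7 rats 2, 4 or 5 (adjusted p = 0.0566 to 0.106) and with normexp background correction (adjusted p = 0.0528). WT control rat 3 was the only WT control on slide 1, where WT Mitsui-7 had no array. In p53het Mitsui-7 rats the difference was -0.42 ± 0.16 (adjusted p = 0.0898, or 0.0165 with slide as a fixed block), and over both genotypes the NM-403 difference was -0.35 ± 0.12 (adjusted p = 0.0589). This NM-403 difference passed with slide as a fixed block (adjusted p = 0.000621). With that block, calls over all genes in p53het Mitsui-7 rats rose from 11.6% to 22.5%. Of 7 signalling scaffold genes 3 fell after Mitsui-7 and 1 after NM-403, and none rose. Akap12, another kinase-anchoring protein, fell by 0.65 ± 0.11 after Mitsui-7 (adjusted p = 3.07e-05) and by 0.34 ± 0.11 after NM-403 (adjusted p = 0.0472).

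Hopx encodes a small homeodomain protein that does not bind DNA and marks type 1 cells as they mature. In WT rats its signal ran from 3.29 to 3.53 (median 3.47) after Mitsui-7 and from 3.20 to 3.75 (median 3.42) after NM-403, against 3.42 to 3.94 (median 3.68) in controls. The p53het rats ranged from 3.25 to 3.60 (median 3.48) after Mitsui-7 and were 3.15, 3.48, 3.35, 3.56 and 3.83 after NM-403, against 3.4 to 4.26 (median 3.71) in controls. All groups overlapped, and no comparison within a genotype passed, with differences from -0.28 to -0.25. Over both genotypes Hopx fell by 0.27 ± 0.08 after Mitsui-7 (limma, adjusted p = 0.0177), and the NM-403 difference was -0.26 ± 0.09 (adjusted p = 0.0593), which passed with slide as a fixed block (adjusted p = 0.00663). The probe used begins at base 755 of the transcript. A probe at base 40 of the same transcript was well above background on every array but far dimmer, with a median of -3.52 in WT controls against 3.68. It gave -0.04 ± 0.09 after Mitsui-7 and 0.05 ± 0.10 after NM-403, and with the mean of both probes the Mitsui-7 call was lost (-0.15, adjusted p = 0.12). Cardiac muscle genes, whose cells also use Hopx, fell for 7 of 8 after Mitsui-7, while 0 of 8 passed after NM-403 (limma, 1 of 8 at an unadjusted p under 0.05). The mean level of those 8 genes ran from -1.53 to -1.08 in WT Mitsui-7 rats, against -1.0 to -0.56 in WT controls, and from -2.10 to -1.23 in p53het Mitsui-7 rats, against -1.19 to -0.50 in p53het controls. Their part in the Hopx result was not tested. Of 11 alveolar transcription factors and YAP/TAZ genes, 3 fell after Mitsui-7 and 1 after NM-403, and none rose. Tead1, a DNA-binding partner of YAP and TAZ, fell by 0.45 ± 0.08 and 0.35 ± 0.09 (adjusted p = 0.000135 and 0.00794).

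**Figure D3:**
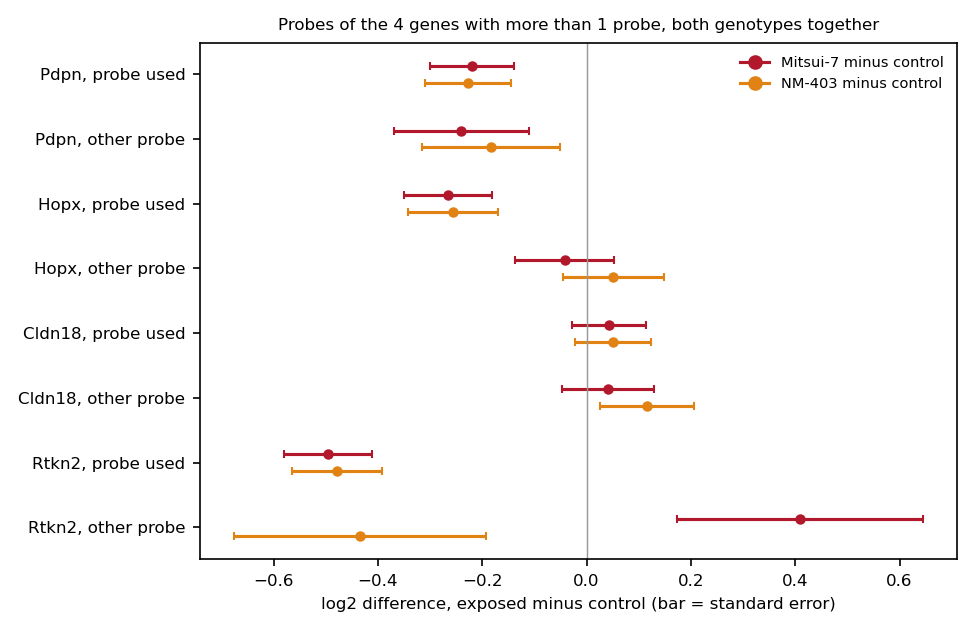
Log2 difference, exposed minus control over both genotypes (x axis), for each probe of the 4 genes that have more than 1 (y axis), red for Mitsui-7 and orange for NM-403, with standard errors. The probes of Pdpn and of Cldn18 lie close together, while for Hopx the other probe sits near 0 and for Rtkn2 the dim probe lies at 0.41 after Mitsui-7.

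The genes were also set against Ager within arrays, as the log2 ratio of each gene to it. Ager was picked after it was seen not to pass, so these ratios are a description, with no test, and they do not show that Ager stayed the same. After Mitsui-7 over both genotypes the log2 ratio differed from control by -0.47 for Cav1, -0.42 for Rtkn2, -0.39 for Akap5, -0.33 for Aqp5, -0.19 for Hopx, -0.15 for Pdpn and 0.12 for Cldn18. With the mean of all probes that difference was 0.03 for Rtkn2.

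No difference between genotypes passed for the 8 genes. Between p53het and WT controls the differences ran from -0.08 ± 0.11 for Pdpn to 0.04 ± 0.12 for Hopx, 0 of 8 passed (limma, 0 at an unadjusted p under 0.05), and 0% of all genes passed. The difference between genotypes in the effect of Mitsui-7 was widest for Pdpn (0.23, 95% interval -0.10 to 0.56) and next for Cav1 (-0.16, -0.43 to 0.10), and for NM-403 it was widest for Rtkn2 (-0.19, -0.54 to 0.17). In both interactions 0 of 8 passed, 0 at an unadjusted p under 0.05, and 0% of all genes were called.

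Between the nanotubes 0 of the 8 genes passed in limma (at an unadjusted p under 0.05, 0 in WT rats, 1 in p53het rats and 1 over both genotypes), where 3.32% of all genes passed in WT rats, 1.36% in p53het rats and 6.9% over both. The intervals over both genotypes were -0.23 to 0.05 for Cav1, -0.19 to 0.16 for Rtkn2 and -0.35 to 0.13 for Akap5, so differences of those sizes were not excluded. For Aqp5 the interval was -0.31 to -0.05 (adjusted p = 0.081), and the difference passed with slide as a fixed or a random block (adjusted p = 0.0373 and 0.0292), with the array median for scaling (adjusted p = 0.0338) and with the brightness covariate (adjusted p = 0.0431). Of all genes, 11.9% passed with either block, 7.14% with the array median and 6.93% with the covariate, against 6.9%.

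A wider list of alveolar type 1 genes was read beside the 8, with 19 of 20 listed genes measured. After Mitsui-7 over both genotypes 13 of the 19 fell and none rose (median -0.31), and after NM-403 10 of the 19 fell and none rose (median -0.26). Igfbp2, an insulin-like growth factor binding protein that marks mature type 1 cells in mice, fell by 0.64 ± 0.11 after Mitsui-7 (adjusted p = 4.31e-05) and by 0.41 ± 0.11 after NM-403 (adjusted p = 0.0177). Col4a4, a chain of basement membrane collagen, fell by 0.49 ± 0.07 (adjusted p = 5.61e-06) and by 0.33 ± 0.07 (adjusted p = 0.00382). Clic3, a chloride intracellular channel protein, fell by 0.44 ± 0.08 and 0.30 ± 0.08, and Cryab, a small heat shock protein, fell by 0.42 ± 0.06 after Mitsui-7. Sema3e, a secreted semaphorin, fell by 0.29 ± 0.07 after NM-403. Within genotypes the counts were 8 of 19 in WT Mitsui-7 and 7 of 19 in p53het Mitsui-7 rats, and 0 of 19 in both NM-403 groups (limma, 11 in WT and 10 in p53het rats at an unadjusted p under 0.05), where the medians were -0.26 in WT and -0.27 in p53het rats. Of all genes, 5.56% were lower in WT Mitsui-7, 6.28% in p53het Mitsui-7, 0.903% in WT NM-403 and 0.253% in p53het NM-403 rats. With such low shares after NM-403, 0 of 19 is no result about the list.

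Of 11 type 2 cell genes, 1 rose and none fell after either nanotube, and their medians were 0.05 after Mitsui-7 and 0.15 after NM-403. These counts lie near the shares of all genes (13.3% higher and 13.9% lower after Mitsui-7, 4.71% and 4.19% after NM-403) and are no result about the list. The 1 was Cd74, the invariant chain, which macrophages and other antigen-presenting cells also express, and which rose by 0.32 ± 0.06 and 0.29 ± 0.06. Of 15 genes of the transitional epithelial state 7 rose and 1 fell after Mitsui-7, and 3 rose after NM-403. Sfn, a 14-3-3 protein induced in stressed epithelium, rose by 1.82 ± 0.13 after Mitsui-7 (adjusted p = 1.57e-12) and by 0.51 ± 0.13 after NM-403 (adjusted p = 0.0105). Cldn4, a claudin of that state, rose by 1.73 ± 0.12 (adjusted p = 1.49e-12) and by 0.63 ± 0.12 (adjusted p = 0.000984). Macrophage genes rose for 6 of 10 after Mitsui-7 and 3 of 10 after NM-403. Their mean level ran from -2.30 to -1.35 in WT Mitsui-7 rats, against -2.85 to -2.69 in WT controls, and the part of these cells in the lower type 1 values was not tested.

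**Figure D4:**
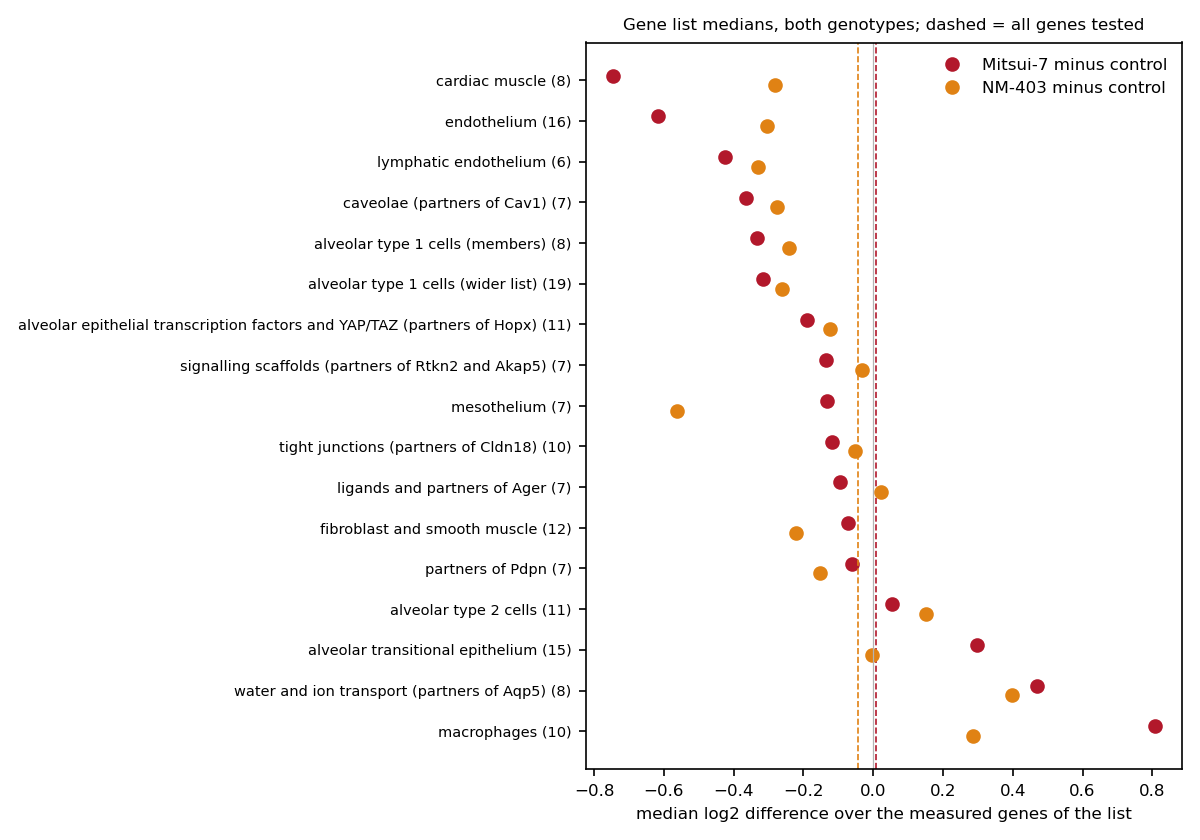
Median log2 difference, exposed minus control over both genotypes (x axis), of the measured genes in each list (y axis, number measured in brackets), red for Mitsui-7 and orange for NM-403; dashed lines mark the median of all genes tested. The 8 genes lie at -0.33 and -0.24, near the wider type 1 list and the caveolar list, and type 2 genes lie at 0.05 and 0.15.

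The genes most like the 8 were found by correlating each named gene with their scaled mean over the 35 arrays. Emp2, a membrane protein of type 1 cells that is also on the wider list, came first (Pearson r = 0.90, Spearman rho = 0.87), followed by Cav2 (0.84), Anxa8 (0.83), Sec14l3 (0.82) and Aqp1 (0.82). With group means removed the first 5 were Emp2 (0.83), Sec14l3 (0.72), Mpped2 (0.68), Mycbpap (0.67) and Rps20 (0.65). These values order genes and carry no test, and arrays share slides.

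Among themselves the 8 genes did not vary as one. With group means removed, the 28 pairs had a median r of 0.04 over the 35 arrays, from -0.60 to 0.71, and 10 of 28 passed after adjustment of a permutation test within groups. That permutation ignores slide, and arrays on the same slide are alike, so its p can be too small, here and for the pairs below. Hopx and Akap5, which fell to an r of 0.02 with slide means removed too, are among the 10. Cav1, Pdpn, Hopx and Akap5 correlated with each other in all 6 pairs (r from 0.55 to 0.71), and so did Aqp5, Rtkn2, Ager and Cldn18 (6 pairs, 0.33 to 0.58), while pairs across these sets ran from -0.60 to 0.09. The sets were drawn after the values were seen and are given without a test. They also differ in how they go with the 75th percentile that was subtracted on each array. Within groups, r with that percentile ran from 0.34 to 0.64 in the first set and from -0.67 to -0.30 in the other. The part of this scaling in the sets was not tested. The sets stood less apart with slide means removed too. The first set then ran from 0.02 to 0.47 (median 0.33, against 0.67 before). The other ran from 0.20 to 0.56 (median 0.49, against 0.43). Pairs across them ran from -0.43 to 0.54 (median 0.18, against -0.15), with 11 of 16 above 0 against 6 before. The closest pair was Pdpn and Hopx (r = 0.71, rho = 0.64, permutation p = 0.00015 and 0.00044, adjusted p = 0.00105), with r = 0.58 without the 2 arrays farthest from the median of Pdpn. The most opposed was Cldn18 and Akap5 (r = -0.60, rho = -0.61, permutation p = 0.00081 and 0.00039, adjusted p = 0.00378), with r = -0.54 without 2 such arrays. With slide means removed too, Pdpn and Hopx gave 0.43, Hopx and Akap5 0.02 in place of 0.57, and Cav1 and Rtkn2 0.54 in place of 0.02.

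The brightness of the array correlated with 4 of the 8 genes. Brightness here is the 75th percentile that was subtracted from every value. A negative r is therefore partly built in, and the permutation takes neither this nor slide into account. How many of all genes correlate in this way was not computed. Within groups, the 75th percentile of log2 signal correlated with Ager at r = -0.67 (rho = -0.68, permutation p = 3e-04 and 5e-05), with Cldn18 at -0.63 (rho = -0.56, p = 3e-04 and 0.00186 by permutation) and with Rtkn2 at -0.61 (rho = -0.56, permutation p = 0.00096 and 0.0017). Its correlation with Akap5 was 0.64 (rho = 0.52, permutation p = 0.00035 and 0.0036). These 4 passed adjustment over 16 relations (adjusted permutation p = 0.00187, 0.00187, 0.00384 and 0.00187), while Cav1, Aqp5, Pdpn and Hopx did not (adjusted permutation p = 0.0517 to 0.149). For those that did not pass, r was 0.44 for Cav1, -0.30 for Aqp5, 0.37 for Pdpn and 0.34 for Hopx. With slide means removed too, r was -0.81 for Ager, -0.63 for Cldn18, -0.40 for Rtkn2 and 0.33 for Akap5. Before that removal and without the 2 farthest arrays r was -0.66, -0.57, -0.53 and 0.52. The median percentile was 10.4 in WT Mitsui-7 and 10.4 in WT NM-403 rats, against 10.5 in WT controls, and 10.2 in p53het Mitsui-7 and 10.7 in p53het NM-403 rats, against 10.4 in p53het controls. With the percentile as a covariate, chosen after seeing the data, 5 of 8 genes fell after Mitsui-7 and 6 of 8 after NM-403 over both genotypes. With that covariate 29.4% and 13% of all genes were called in either direction, against 27.2% and 8.9% without it. Cav1 was then -0.52 and -0.46, Rtkn2 -0.55 and -0.47, Akap5 -0.39 and -0.37, and Pdpn lost its Mitsui-7 call (-0.19, adjusted p = 0.0617).

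**Figure D5:**
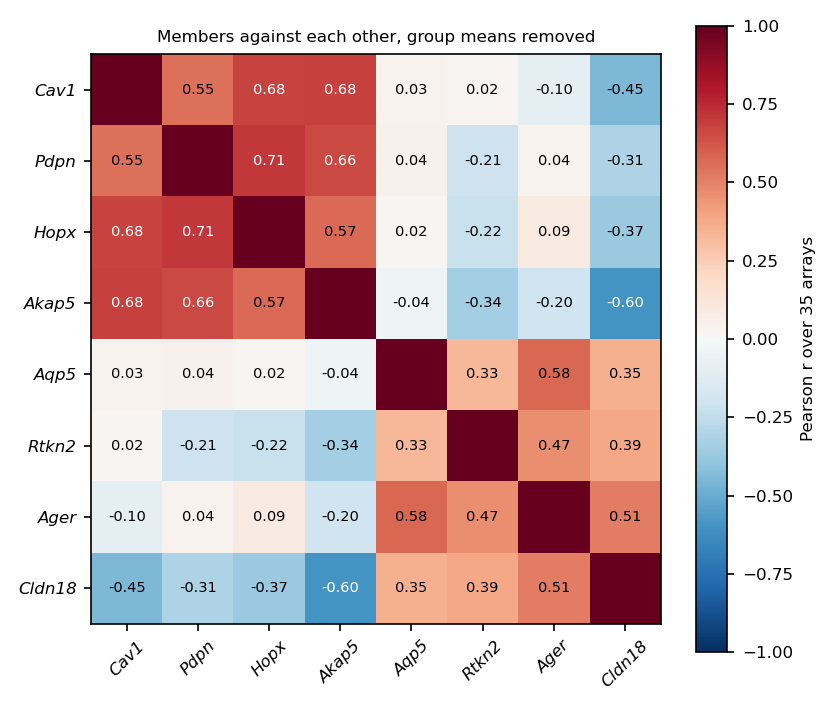
Pearson r over 35 arrays between each pair of the 8 genes after group means were removed, red above 0 and blue below 0. Cav1, Pdpn, Hopx and Akap5 form a block of r from 0.55 to 0.71, and Aqp5, Rtkn2, Ager and Cldn18 a block from 0.33 to 0.58; with slide means removed too, which is not drawn, the first block runs from 0.02 to 0.47 and pairs across the blocks reach 0.54.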

How the data were processed

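Gene expression was measured on 35 one-colour arrays, 1 per rat. The deposited scanner files give background-corrected processed signal per spot as an intensity on a linear scale, read out by Agilent Feature Extraction (the submitters' processing notes name version 12.0.1.1). A matrix deposited by the authors holds log2 values for 11555 probes centred per probe; on each array they correlated with the values used here at r = 0.995 to 0.999, and its column medians ran from -0.083 to 0.069. They were used as an alternative.

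Of 62976 spots, 4259 controls were dropped, as were 221 to 699 spots per array that the scanner software marked as outliers. The 75th percentile of log2 intensity was then subtracted on each array. Spots of a probe were averaged, and a gene was read by its probe with the highest mean. A gene was kept if 5 or more arrays showed it well above background and every group had 3 or more measured values. All kept genes were fitted with 1 mean per group in limma 3.58.1 (R 4.3.3, package data.table in version 1.17.8), with Benjamini-Hochberg adjustment over all genes within a comparison and 0.05 as the limit. The ± of a difference is limma's standard error, and adjusted p is limma's unless named otherwise. The number of arrays limits precision.

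Differences were also tested by exact permutation of rats (all arrangements) and, for pairs of genes, by 100000 permutations within groups. Neither kind of permutation takes slide into account. The method was tested on simulated data. Samples were grouped by the labels. The numbers of replicates do not pair the rats: arrays with the same number had a mean residual r of 0.03 over 85 pairs, from -0.574 to 0.693. Arrays on the same slide had a mean of 0.239 over 99 pairs, against -0.056 over 411 others, so slide was tried as a block. Of the arrays, 0 were duplicates of another. Other alternatives were quantile and median scaling, normexp (offset 50), other filters, the mean of a gene's probes, array weights and leaving out arrays. The brightness covariate, the ratio to Ager and the fit without the arrays with the most and the fewest bright spots were chosen after seeing the data.

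The genes and lists were chosen with earlier results of these data known, so the lists are not independent evidence. Genes named were the 8 themselves, genes of a list among its 4 largest called differences in a comparison, and the 5 genes most like the 8 before and after removing group means. Some genes that this rule names are not reported here. Array gene names and probe positions are those of the file headers; promoters are RefSeq's.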

Additional observations from a re-analysis of the deposited data

Results flagged for a closer look

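For each of the 8 genes in each of the 6 groups, the gap between the most extreme rat and its nearest neighbour was divided by the range of the group, and 5 of 48 such ratios passed Dixon's limit, where chance gives about 1 in 20. Cav1 in p53het NM-403 rats was lowest in rat 3, with 3.46 against 3.65 in the next rat (ratio 0.727). Cldn18 in WT Mitsui-7 rats was lowest in rat 6, with 5.40 against 5.74 in the next (ratio 0.698). Rtkn2 in p53het Mitsui-7 rats was highest in rat 6, with -2.06 against -2.35 in the next (ratio 0.681). Akap5 was highest in p53het Mitsui-7 rat 3, with 3.41 against 2.91 in the next (ratio 0.67), and in WT control rat 3, with 3.80 against 3.34 in the next (ratio 0.709). For Akap5, each of the rats named was the only one of its group on slide 1. WT NM-403 rat 3, also alone there in its group, was highest as well, with 3.56 against 3.04, within the limit (ratio 0.549). WT Mitsui-7 had no array on slide 1, and the part of slide in these values was not tested. Without WT control rat 3 the WT Mitsui-7 difference of Akap5 was -0.41 (limma, adjusted p = 0.106), and without p53het NM-403 rat 3 the difference of Cav1 in that group was -0.39 (adjusted p = 0.0596).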

How the results depend on the processing

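Counts are of the 8 genes called, out of 8. The share of all genes called in either direction changed with the setting too. In WT NM-403 rats it was 3.2% in the fit used above, 7.73% with slide as a fixed block and 7.77% as a random one. It was 5.92% there with array weights, 3.75% with the brightness covariate and 5.01% of the 9803 genes of the deposited matrix. In WT Mitsui-7 rats (5 called), 3 were called with the mean of all probes and 3 without the arrays with the most and the fewest spots above background, and leaving out 1 array at a time gave 3 to 5, with 3 without WT control rat 3 or WT Mitsui-7 rats 2, 4 or 5. In WT NM-403 rats (1 called), 2 were called from the deposited matrix, 4 when slide was a fixed block, 5 when it was a random one, 2 with array weights and 3 with array brightness as a covariate, and leaving out 1 array gave 1 to 2, with 2 without WT NM-403 rat 4 or p53het NM-403 rat 1. In p53het Mitsui-7 rats (3 called), 2 were called with the mean of all probes, where Rtkn2 was lost. There were 4 when slide was a fixed or a random block and with the brightness covariate, where Akap5 was gained. Calls over all genes rose there as well, from 11.6% to 22.5%, 21% and 15.2%. Leaving out 1 array gave 3 to 4. In p53het NM-403 rats (2 called), 1 was called with the array median for scaling and 1 with the mean of all probes, and leaving out 1 array gave 1 to 2, with 1 without p53het NM-403 rats 2 or 3. Over both genotypes, Mitsui-7 (6 called) had 3 with the mean of all probes and 5 to 6 without 1 array. NM-403 (3 called) had 5 with quantile normalization, 6 with slide as a fixed or a random block and 6 with the brightness covariate, and 3 to 5 without 1 array, with 5 without WT NM-403 rat 3 or p53het NM-403 rat 5. Mitsui-7 against NM-403 over both genotypes (0 called) had 1, Aqp5, with the array median, with slide as a fixed or random block and with the brightness covariate, and 0 to 1 without 1 array, with 1 without WT Mitsui-7 rat 1. Calls over all genes were 7.14% with the array median, 11.9% with either block and 6.93% with the covariate, against 6.9%. The other 5 comparisons had 0 throughout. With the mean of all probes, which adds a dim Rtkn2 probe, Rtkn2 turned to 0.0369 in WT Mitsui-7 rats and its ratio to Ager after Mitsui-7 turned to 0.0294. The replicate block, with the number of each rat as a fixed term, left 5, 1, 3 and 2 genes called in the 4 comparisons with control within a genotype. The causes of these changes were not tested. The 5 or 6 rats per group and the dim signal of the further Rtkn2 probe limit what can be seen.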
